A study of Homo sapiens with 12 samples.

Results

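WNT ligands, their receptors, the secreted proteins that antagonise them and the intracellular factors that relay or restrain the signal were followed in a breast cancer line without hormone receptors, MDA-MB-468. The genes were taken by symbol: the WNT, Frizzled (FZD), DKK and SFRP families, the coreceptors LRP5 and LRP6, the R-spondin receptors LGR4, LGR5 and LGR6, the ligases RNF43 and ZNRF3, AXIN1, AXIN2 and NKD1, WIF1, and the nuclear factors LEF1, TCF7, TCF7L1 and TCF7L2. This gave 52 genes among the 58735 rows of the count tables, of which 37 had enough counts to be tested among 17780 tested genes. The 12 libraries of poly(A) RNA formed 4 groups of 3, lettered A, B and C: vehicle (DMSO), docetaxel at 10 nM collected after 8 h or after 24 h, and a combination of tazemetostat and ipatasertib, each at 5 µM. All groups came from the same line, and the labels give its genotype as WT. Docetaxel, a taxane that stabilises microtubules, was added to cells in 10 cm plates. Tazemetostat blocks EZH2, the methyltransferase of Polycomb repressive complex 2, and ipatasertib blocks the kinase AKT. The protocol for the targeted drugs holds cells for 5 days in tazemetostat or DMSO, moves them to 6 cm plates, and adds drug for 24 h in medium with 2% FBS. Hours, serum and plate size of the DMSO libraries are not given, and neither drug of the combination was sequenced alone, so effects of the drugs, the prior culture and the serum cannot be told apart. Nothing says that the lettered libraries were separate cultures, so a p-value here reflects only how far these libraries differ, a spread that may be technical.

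WNT proteins are secreted lipid-modified ligands that bind Frizzled receptors on the cell surface. With LRP5 or LRP6 as coreceptor they stop the destruction of beta-catenin, which then drives target genes with TCF/LEF factors, and with other receptors they act on cell polarity and calcium. R-spondins raise Frizzled at the membrane by binding LGR receptors and holding off ZNRF3 and RNF43, DKK1 blocks the coreceptors, SFRP proteins bind WNT ligands, and AXIN2, NKD1 and ZNRF3 are feedback inhibitors that beta-catenin commonly induces. In basal-like breast tumours the family has been studied for growth, stemness and migration.

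Library totals ran from 29820617 to 45807059 counts, so that 3 counts summed over all libraries, the limit that a count of 0 allows, equal 0.00734 CPM, the unit of counts per fixed number of counts in a library; intervals and floors cover counting error only. The 8 basal-like epithelial markers summed to between 10494 and 13728 CPM in each library, while ESR1 stayed at or below 2.13 CPM and PGR had at most 1 count. EGFR and KRT8 were the largest of the 8 in DMSO, with means of 3830 and 3319 CPM. Single markers of the 8 moved: mean KRT5 was 1624 CPM in DMSO, 2850 and 1624 at 8 h and 24 h of docetaxel, and 936 in the combination. Mean KRT17 was 565, 1633, 932 and 902 CPM in the same order. The immune markers PTPRC, CD3E and MS4A1 had at most 7 counts in any library. Single genes of the other-cell lists moved with the combination. The summed immune list was 2.81 to 2.98 CPM in DMSO and 15.4 to 15.9 in the combination through CSF1R. The endothelial list was 21.8 to 24.4 and 39.0 to 40.3 through KDR, and the fibroblast list 24.3 to 27.0 and 29.4 to 30.3. In the fibroblast list LUM was at 0 in DMSO and 4.17 CPM in the combination, where mean PDGFRA was also higher. Mean COL1A1, the largest of that list, and mean FAP were lower in the combination than in DMSO. The part of these genes in the results on WNT genes was not tested. Mitochondrial counts were 4.001% to 4.48% of a DMSO library and 5.00% to 9.30% of a treated one, and their part was not tested either.

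In untreated cells the family was carried by few members. On the scale of CPM per kb of exon, which allows levels of different genes to be compared, WNT6 made up 74.3% ± 0.56 (SD, n = 3) of the summed ligand level in DMSO, and WNT7B a further 15.4% ± 0.31. WNT9A and WNT10A followed with 4.04% and 3.60%, and no other ligand reached 1%. Among the receptors FZD6, FZD2 and FZD7 gave 29.1%, 26.4% and 18.2% of the sum in DMSO, and FZD8 was the lowest of the 9 tested at 0.172 CPM per kb. LRP5 gave 88.8% of the coreceptor level, LGR4 99.0% of the R-spondin receptor level, and ZNRF3 92.1% of the ligase level. The other ligase, RNF43, shares 57.64% of its exon length with another gene model on its strand. Its level, and so the share of ZNRF3, depends on how those reads were counted, which is not given. SFRP1 gave 76.5% of the antagonist level and DKK1 23.4%. Among the nuclear factors TCF7L1, often a repressor of WNT targets, gave 80.9%, and LEF1 had no count in any DMSO library.

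**Figure D1:**
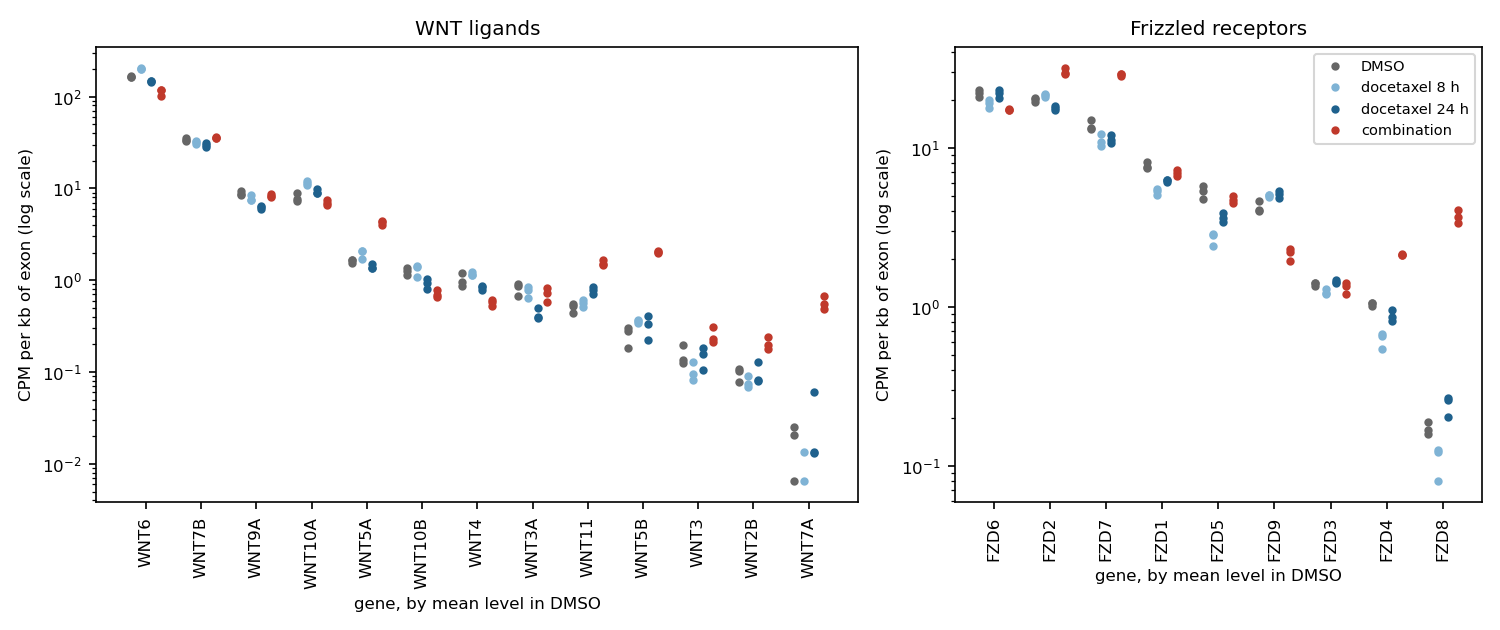
Level of the 13 tested WNT ligands and the 9 tested Frizzled receptors in CPM per kb of exon on a log axis, with a point for each library and a colour for each group; libraries with no count of WNT7A are not drawn. WNT6 and WNT7B lie above the other ligands in all groups, and FZD8 rises from the bottom of the receptors in DMSO to above FZD3, FZD4 and FZD9 in the combination.

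The upstream sequences of DKK1 and FZD8, the antagonist and the receptor with the smallest adjusted p of their role in the combination, are shown first. Both are the 250 bases before the RefSeq start (GRCh38.p14), DKK1 at chr10:52314031-52314280 on the plus strand and FZD8 at chr10:35642297-35642546 on the minus strand. In DKK1 the capitals mark the match to CTTTGAA, a core word of TCF/LEF binding. In FZD8 the capitals mark each CpG.
DKK1: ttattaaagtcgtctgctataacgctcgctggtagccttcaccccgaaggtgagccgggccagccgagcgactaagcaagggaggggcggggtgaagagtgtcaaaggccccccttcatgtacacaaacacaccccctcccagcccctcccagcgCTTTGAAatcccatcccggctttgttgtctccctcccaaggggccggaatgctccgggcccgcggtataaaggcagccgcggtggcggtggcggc
FZD8: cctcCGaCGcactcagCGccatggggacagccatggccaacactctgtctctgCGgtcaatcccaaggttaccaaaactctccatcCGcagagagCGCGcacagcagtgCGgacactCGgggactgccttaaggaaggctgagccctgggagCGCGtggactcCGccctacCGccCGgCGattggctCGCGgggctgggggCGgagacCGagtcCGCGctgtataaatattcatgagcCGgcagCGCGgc
CTTTGAA and CTTTGAT, which differ in the last base so that no site matches both, were searched on both strands. Windows were found for 35 members (44 windows), and DKK1 was the 1 member with either word. Of all 35116 windows of this length 5.94% held either word, 3.80% CTTTGAA and 2.26% CTTTGAT. The DKK1 window held 18 CpG and the FZD8 window 24, beside a median of 20 over the members' windows and 11 over all windows.

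The comparison of the combination with DMSO covers the joint block of EZH2 and AKT together with any difference in prior culture and serum. It held the largest changes: FZD8, WNT7A, WNT5B, DKK1 and LEF1 rose by 2.91 or more on the log2 scale, while the feedback inhibitors NKD1, ZNRF3 and AXIN2, the coreceptors LRP5 and LRP6, and LGR4 fell. With p-values from edgeR's quasi-likelihood test, adjusted over all tested genes (Benjamini-Hochberg), 13 of the 37 members were higher and 16 lower, beside 31.4% of all genes called higher and 31.4% called lower. Of these, 10 were higher by at least 2-fold, beside 12.1% of all genes, and 1 member, NKD1, was lower by at least 2-fold, beside 2.7%. The 13 and the 10 include LEF1 and WNT7A, which passed the count filter only through the combination libraries. Their place among the tested genes thus depended on being high there, so they add no support to these counts. The median log2 fold change was -0.13 over the members and 0.01 over all tested genes.

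**Figure D2:**
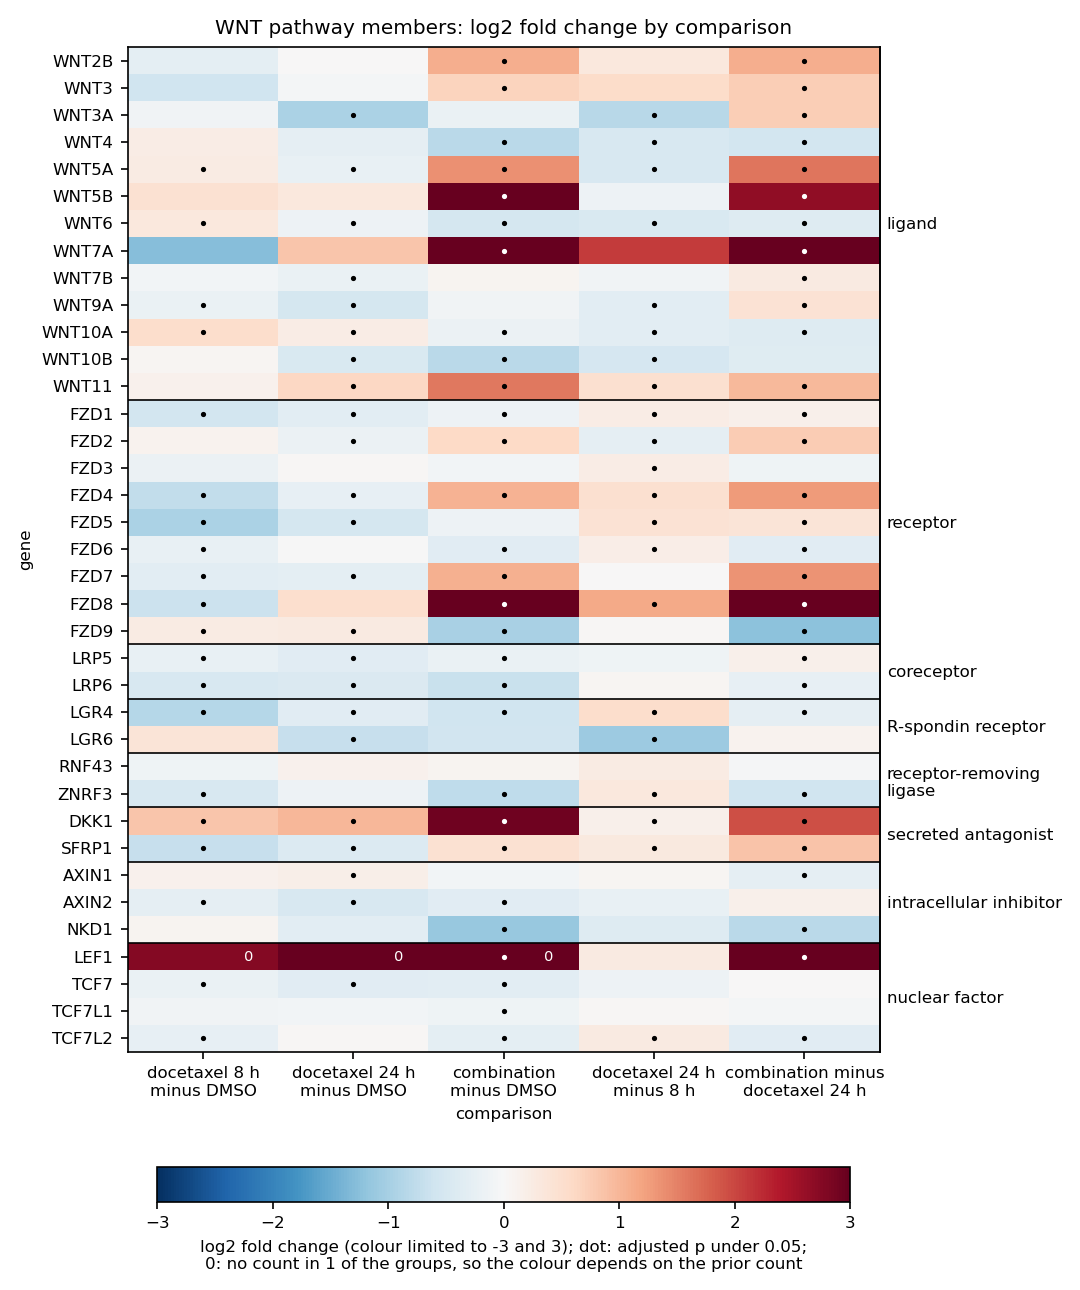
Log2 fold change of the 37 tested members (rows, grouped by role) in 5 comparisons (columns); colour is limited to between -3 and 3, a dot marks an adjusted p under 0.05, and a 0 marks a gene with no count in 1 of the groups. The combination column holds the strongest rises, in FZD8, WNT7A, WNT5B, DKK1 and LEF1, and the docetaxel columns are paler, with more falls than rises.

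Among the ligands, 6 rose, 4 fell and 3 did not pass the test in the combination, beside 31.4% of all tested genes called higher and 31.4% called lower. WNT5B lay at 1.20, 0.793 and 1.30 CPM in DMSO and at 8.92, 8.58 and 8.80 CPM in the combination. These groups did not overlap, and no docetaxel library exceeded 1.74 CPM. The log2 fold change in the combination was 2.98 ± 0.17 (SE; adjusted p = 8.6e-13, edgeR quasi-likelihood). WNT5A, its close relative and a ligand of polarity signalling, stood at 12.4, 12.4 and 11.3 CPM in DMSO and 29.6, 32.6 and 32.0 in the combination. All 3 combination libraries were above every other library, with a log2 fold change of 1.38 ± 0.08 (adjusted p = 9.59e-13, edgeR). In docetaxel WNT5A was 12.5, 15.4 and 15.3 CPM at 8 h and 11.004, 10.0 and 9.93 CPM at 24 h.

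WNT7A, a ligand with roles in limb and reproductive tract patterning, was close to absent in 3 of the 4 groups. It had 0.115, 0.0952 and 0.0295 CPM in DMSO, 0 to 0.0618 CPM at 8 h of docetaxel and 0.0601 to 0.280 CPM at 24 h. The combination libraries held 3.10, 2.23 and 2.55 CPM. No combination library came near the others, and the log2 fold change against DMSO was 4.93 ± 0.43 (adjusted p = 9.51e-10, edgeR). WNT7A passed the count filter only through the combination libraries, so this p-value and the separation add no support of their own. WNT11, another ligand of the polarity branch, was 1.34, 1.27 and 1.06 CPM in DMSO, 1.21 to 1.45 at 8 h of docetaxel, 2.04, 1.69 and 1.89 at 24 h, whereas the combination libraries held 3.50, 3.56 and 4.02 CPM. Here the 24 h docetaxel libraries lay between DMSO and the combination without overlap, with log2 fold changes against DMSO of 0.61 ± 0.18 (adjusted p = 0.00674) at 24 h and 1.59 ± 0.17 (adjusted p = 1.8e-08, edgeR) in the combination. WNT2B was 0.990, 1.30 and 1.36 CPM in DMSO and 3.003, 2.23 and 2.48 in the combination, without overlap (log2 fold change 1.09 ± 0.21, adjusted p = 0.000106, edgeR). ST7L overlaps 21.18% of WNT2B's exon length on the other strand and moved the other way there, with a log2 fold change of -0.20. WNT3 had the smallest rise (0.68 ± 0.29, adjusted p = 0.0431, edgeR), with 0.539 to 0.852 CPM in DMSO and 0.929 to 1.33 in the combination. Its adjusted p reached 0.190 over the alternatives, and the call ended with DESeq2, library totals, no filter or the replicate block, and without DMSO B, DMSO C, combination B or combination C.

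The most abundant ligand went the other way. WNT6 fell from 277, 283 and 275 CPM in DMSO to 203, 174 and 201 in the combination, with no overlap and a log2 fold change of -0.53 ± 0.05 (adjusted p = 7.69e-09, edgeR). WNT10B and WNT4, a ligand of the breast's progesterone response, were both lower by 0.82 on the log2 scale, and WNT10A, whose gene lies 6129 bp from WNT6 on the same strand, had -0.17. The WNT10A call ended without DMSO B, DMSO C, combination A or combination B and with DESeq2, its size factors or the filter on the mean count, and its adjusted p reached 0.310. WNT7B, WNT9A and WNT3A had 0.07, -0.09 and -0.19 and did not pass the test. The ligand level summed per kb was 220 ± 5.22 (SD, n = 3) in DMSO and 175 ± 10.7 in the combination, in which WNT6 made up 64.6% and WNT5A and WNT5B 2.43% and 1.16%.

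Of the 9 tested Frizzled genes, 4 rose and 3 fell in the combination, beside 31.4% of all tested genes called higher and 31.4% called lower. FZD8 went from 0.760, 0.634 and 0.680 CPM in DMSO to 13.5, 14.8 and 16.3, the largest fold of a receptor. The docetaxel libraries held 0.321 to 0.504 CPM at 8 h and 0.812 to 1.08 CPM at 24 h and stayed far below every combination library. Its log2 fold change was 4.41 ± 0.15 (adjusted p = 9.1e-17, edgeR). FZD7, a receptor often discussed in triple-negative tumours, rose from 50.5, 57.6 and 51.7 CPM to 113, 112 and 110 without overlap (log2 fold change 1.07 ± 0.06, adjusted p = 1.19e-12, edgeR), and FZD2 rose by 0.60 ± 0.05. FZD4 stood at 7.74, 7.42 and 7.80 CPM in DMSO and 15.6, 15.8 and 15.6 in the combination, again apart (log2 fold change 1.03 ± 0.09, adjusted p = 1.04e-09, edgeR). The protease gene PRSS23 overlaps 18.95% of FZD4's exon length on the other strand and rose from a mean of 28.3 to 273 CPM; whether counting used strand is not given, so reads of the overlap cannot be told apart.

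FZD9, FZD6 and FZD1 fell, by 0.98, 0.34 and 0.16 on the log2 scale, and the FZD1 call ended without DMSO B or combination A (adjusted p up to 0.0964). FZD5 and FZD3 had -0.16 and -0.08 and did not pass the test. Summed per kb, the receptor level was 75.7 ± 3.35 (SD, n = 3) in DMSO and 97.4 ± 1.41 in the combination. FZD2 and FZD7 then gave 31.0% and 29.6%, FZD6 17.8% and FZD8 3.79%.

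Both coreceptors, LGR4 and ZNRF3 fell in the combination, while LGR6 and RNF43 did not pass the test. LRP6 went from 41.0 to 47.3 CPM in DMSO to 23.6 to 29.3, with a log2 fold change of -0.68 ± 0.08, and LRP5 had -0.20 ± 0.05. LGR4, the main R-spondin receptor here, fell from 186, 200 and 192 CPM to 116, 137 and 131, with no overlap (log2 fold change -0.59 ± 0.06, adjusted p = 3.89e-08, edgeR). The ligase ZNRF3 fell from 33.5, 38.6 and 36.4 CPM to 20.2, 21.8 and 22.4, also apart (-0.75 ± 0.08, adjusted p = 2.23e-08, edgeR). RNF43, its relative, was 3.25 to 3.49 CPM in DMSO and 3.24 to 3.72 in the combination (0.09 ± 0.14, adjusted p = 0.624, edgeR), and 57.64% of its exon length is shared with another gene model on its strand, to which the authors' counting could assign reads. LGR6 had -0.58 ± 0.26 (adjusted p = 0.0567, edgeR).

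**Figure D3:**
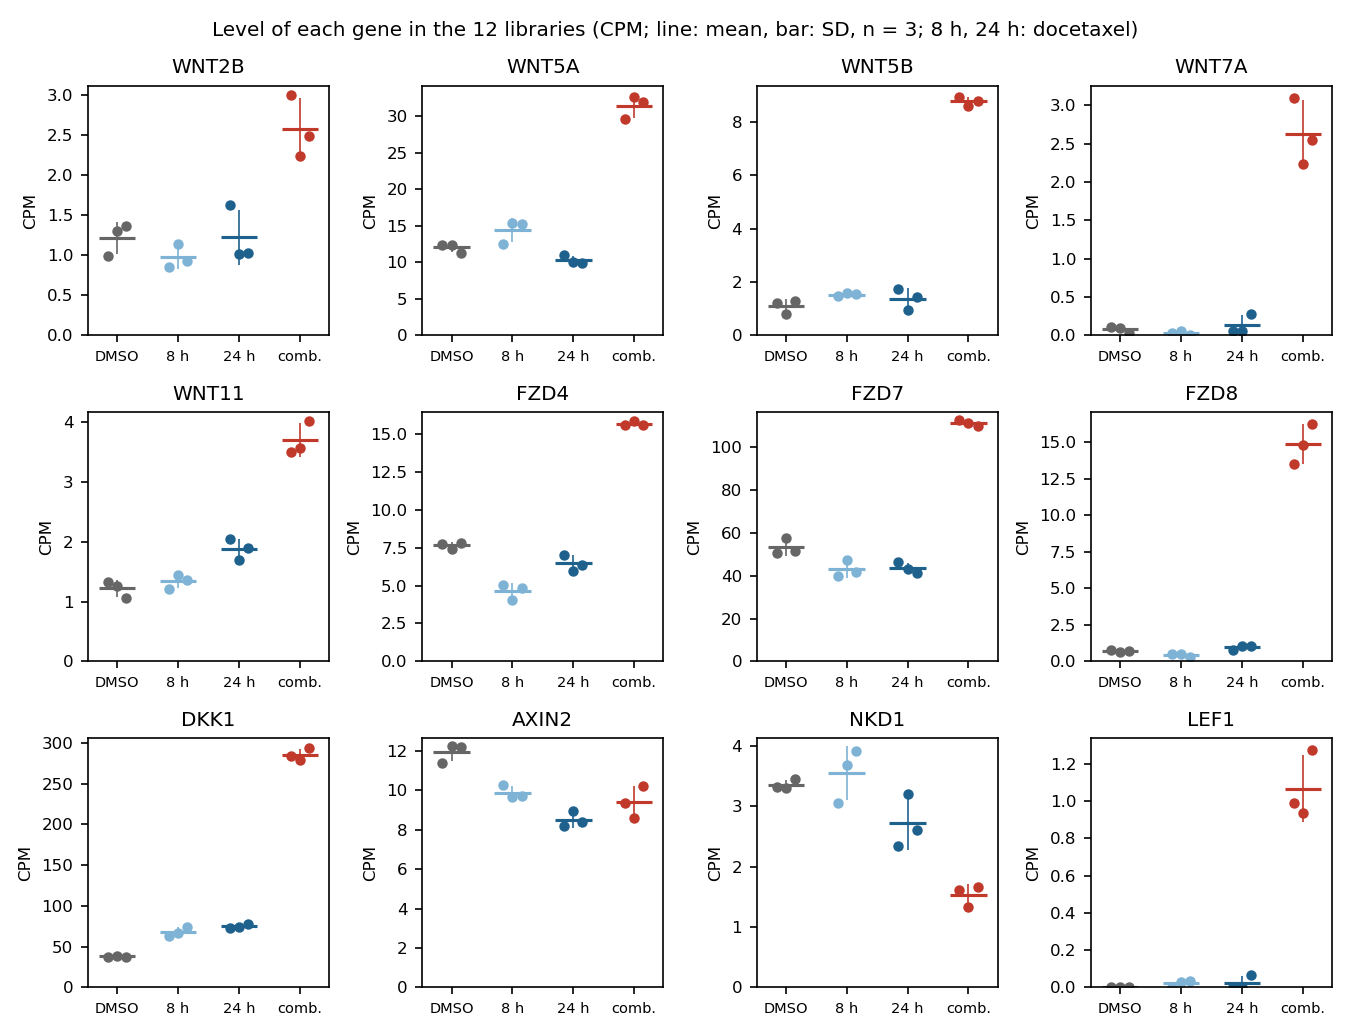
CPM in each of the 12 libraries (points) for 12 members, with the group mean (line) and SD (bar, n = 3), each panel on its own linear axis from 0. 10 panels show the combination apart from and above the other groups, whereas NKD1 is lowest there and AXIN2 is below DMSO in all treated groups.

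Both secreted antagonists with enough counts rose in the combination. DKK1 went from 36.9, 39.1 and 37.8 CPM in DMSO to 284, 278 and 293, and was 63.1, 67.2 and 73.9 at 8 h and 72.9, 74.3 and 78.1 at 24 h of docetaxel. DKK1 was thus higher than DMSO in every treated library, by 0.84 ± 0.06 and 0.99 ± 0.06 on the log2 scale in docetaxel and by 2.91 ± 0.06 in the combination (adjusted p = 9.12e-11, 2.14e-11 and 5.36e-21, edgeR). SFRP1, which binds WNT proteins, was 263, 274 and 267 CPM in DMSO, 154, 175 and 167 at 8 h, then 201, 210 and 197 at 24 h, and it was highest in the combination at 356, 372 and 371. None of the groups overlapped, with SFRP1 below DMSO in docetaxel (-0.70 ± 0.05 and -0.40 ± 0.05) and above it in the combination (0.45 ± 0.05, adjusted p = 4.19e-08, edgeR). Per kb of exon the antagonist sum went from 73.6 ± 1.68 (SD, n = 3) in DMSO to 206 ± 4.01 in the combination, and DKK1's share from 23.4% to 62.7%.

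None of the 3 intracellular inhibitors rose in the combination. AXIN2, the common readout of beta-catenin activity, was 11.4, 12.3 and 12.2 CPM in DMSO and 9.38, 8.62 and 10.2 in the combination, with all 3 below DMSO (-0.34 ± 0.09, adjusted p = 0.00128, edgeR). Another gene model on its strand, AC004805.1, shares 25.18% of AXIN2's exon length and had at most 3 counts in any library. How reads of that overlap were counted is not given. NKD1, a feedback inhibitor that binds Dishevelled, fell from 3.32, 3.30 and 3.46 CPM to 1.61, 1.33 and 1.67, without overlap (-1.13 ± 0.17, adjusted p = 3.48e-06, edgeR). AXIN1, the constitutive scaffold of the destruction complex, had -0.08 ± 0.05 and did not pass the test.

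LEF1, a nuclear partner of beta-catenin, was the 1 tested member with no count in DMSO. It had 0 counts in the 3 DMSO libraries, 2 counts over the docetaxel libraries at 8 h, 3 at 24 h and 100 over the combination libraries, where it stood at 0.991, 0.939 and 1.28 CPM. All combination libraries were apart from the rest. LEF1 was there 38.7-fold above a floor of 3 counts taken over the DMSO group (adjusted p = 4.89e-08, edgeR). LEF1 passed the count filter only through the combination libraries, so this p-value and the separation add no support of their own. In the combination LEF1 made up 0.686% of the nuclear-factor level per kb. TCF7, TCF7L2 and TCF7L1 fell by 0.31, 0.30 and 0.13 on the log2 scale, and the TCF7L1 call ended without DMSO B (adjusted p = 0.0934, edgeR).

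The comparisons of docetaxel with DMSO ask how the family responded to a taxane over time. At 8 h most called changes were falls: FZD5, LGR4, FZD4, the antagonist SFRP1, FZD1, LRP6 and ZNRF3 lost between 0.48 and 0.96 on the log2 scale, while DKK1, WNT10A and WNT6 rose. In all, 5 members were higher and 15 lower (edgeR), beside 22.5% and 24.8% of all tested genes. The members' median was -0.17, beside -0.02 over all genes. Scaling to library totals moved the median of all genes by -0.155 in this comparison and made the split 3 higher to 18 lower, beside 2288 to 6784 over all genes in place of 3994 to 4415, so directions at 8 h are relative to that shift.

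FZD5, a receptor for canonical WNT ligands, had the largest fall among the called members at 8 h, from 32.1, 38.4 and 35.7 CPM to 16.1, 19.3 and 19.1, and stood at 26.1, 24.3 and 22.9 at 24 h. Both docetaxel groups were below DMSO without overlap, with log2 fold changes of -0.96 ± 0.08 and -0.54 ± 0.08 (adjusted p = 1.73e-09 and 6.35e-06, edgeR). LGR4 was 94.4, 114 and 110 CPM at 8 h and 158, 155 and 147 at 24 h, below every DMSO library at both times (-0.86 ± 0.07 and -0.33 ± 0.06, adjusted p = 5.06e-10 and 0.000225, edgeR). Other surface members had, at 8 h and 24 h, -0.73 and -0.25 for FZD4, -0.54 and -0.32 for FZD1, -0.31 and -0.29 for FZD7, -0.48 and -0.43 for LRP6, and -0.22 and -0.35 for LRP5. ZNRF3 had -0.48 at 8 h and, not passing the test, -0.16 at 24 h. FZD6 and FZD8 were called lower at 8 h alone, by 0.21 and 0.64. FZD9 was the receptor called higher at both times, by 0.24 and 0.26, and FZD2 was called lower at 24 h, at -0.17. FZD3 had -0.17 and 0.05 and passed at neither time.

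Among the ligands, WNT10A, known from skin appendages and teeth, rose from 24.9, 30.0 and 26.2 CPM to 39.0, 40.9 and 37.6 at 8 h and stood at 30.4, 30.5 and 33.5 at 24 h. Its 8 h libraries were above all others, with log2 fold changes of 0.54 ± 0.07 and 0.22 ± 0.07 (adjusted p = 1.55e-06 and 0.0132, edgeR). WNT6, its neighbour, was 351, 341 and 340 CPM at 8 h, above DMSO (0.31 ± 0.05), and 248, 252 and 254 at 24 h, below DMSO (-0.15 ± 0.05). WNT3A, the prototype of a canonical ligand, was 2.28, 1.88 and 2.50 CPM at 8 h, overlapping DMSO (1.95 to 2.66), and fell to 1.17, 1.45 and 1.14 at 24 h (-0.94 ± 0.19, adjusted p = 0.000376, edgeR). WNT9A fell at both times, by 0.19 and 0.52, WNT10B at 24 h by 0.45, and WNT7B at 24 h by 0.20. WNT5A was called in opposite directions, at 0.25 and -0.23. WNT2B, WNT3, WNT4, WNT5B and WNT7A passed at neither time against DMSO.

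Inside the cell, AXIN2 fell at both times, to 10.3, 9.67 and 9.73 CPM at 8 h and 8.18, 8.94 and 8.40 at 24 h. Every docetaxel library was below every DMSO library, with log2 fold changes of -0.27 ± 0.09 and -0.49 ± 0.09 (adjusted p = 0.0114 and 6.9e-05, edgeR). TCF7 fell by 0.19 and 0.33, TCF7L2 fell by 0.25 at 8 h, and AXIN1 rose by 0.18 at 24 h. NKD1, RNF43 and TCF7L1 passed at neither time, with differences between -0.31 and 0.12. LGR6 was called lower at 24 h, by 0.69. At 24 h 5 members were higher and 18 lower (edgeR), beside 20.2% and 22.7% of all tested genes, and the median was again -0.17, beside 0.01 over all genes.

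Some docetaxel calls rested on single libraries or settings. At 8 h, leaving out DMSO B gave 9 lower calls in place of 15, and leaving out docetaxel 8 h C gave 3 higher calls in place of 5. AXIN2 lost its call without DMSO B or C (adjusted p up to 0.0654), FZD6 without DMSO B (0.0505), TCF7 without DMSO A or B or docetaxel 8 h B or C (up to 0.182), TCF7L2 without DMSO A or B or docetaxel 8 h A (up to 0.154) and WNT9A without DMSO A or B or docetaxel 8 h A or C (up to 0.144). WNT5A lost it without DMSO C or docetaxel 8 h B or C and under library totals (up to 0.389), FZD9 without DMSO A or C or docetaxel 8 h B or C, without a filter and under library totals (up to 0.455), and FZD8 without any 1 of the 6 libraries compared, with DESeq2, without a filter and in the fit of only these groups (up to 0.180). At 24 h, 3 members were higher without DMSO A. There FZD9 lost its call without a filter and without DMSO A, DMSO C or docetaxel 24 h A (up to 0.0652), WNT10A without DMSO A or docetaxel 24 h C (up to 0.0931), WNT10B without the same libraries (up to 0.115) and FZD2 without DMSO B, DMSO C or docetaxel 24 h C (up to 0.0754). LGR6 lost it without any DMSO library or docetaxel 24 h B or C (up to 0.220), FZD4 without any DMSO library or docetaxel 24 h B or C, with DESeq2, without a filter and in the fit of only these groups (up to 0.146), WNT5A without DMSO A or B or docetaxel 24 h B or C (up to 0.135), and WNT6 without any DMSO library or docetaxel 24 h A or B (up to 0.108), all by edgeR unless DESeq2 is named.

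Between 8 h and 24 h of docetaxel, receptors and ligands moved in different ways. Of the 9 tested Frizzled genes 6 were higher at 24 h than at 8 h and 1 lower, whereas of the 13 tested ligands 1 was higher and 7 lower (edgeR); whether the roles differ was not tested. Over all roles 12 members were higher and 9 lower, beside 16.6% and 18.3% of all genes, and the median was 0.05, beside 0.01. Under library totals, which moved the median of all genes by 0.132, the split was 16 to 8, beside 5392 to 1655 over all genes in place of 2947 to 3261. FZD8 rose by 1.14 ± 0.24 (adjusted p = 0.000617, edgeR), from 0.321 to 0.504 CPM to 0.812 to 1.08 CPM, without overlap. LGR4, FZD4, FZD5 and ZNRF3 rose by 0.53, 0.49, 0.42 and 0.32. WNT3A, WNT4, WNT5A and WNT6 fell by 0.83, 0.49, 0.48 and 0.45, and LGR6 fell by 1.09.

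The combination was also set against docetaxel at 24 h, a comparison of treatments whose cultures differed before and during the drugs. Here 19 members were higher in the combination and 11 lower (edgeR), beside 32.1% and 31.7% of all genes, with a median of 0.15 over the members and 0.00 over all genes. LEF1 and WNT7A, tested only because they were high in the combination, are again among the 19. FZD8 (3.91 ± 0.14), WNT7A (4.11 ± 0.38), WNT5B (2.67 ± 0.17), DKK1 (1.92 ± 0.05), WNT5A (1.61 ± 0.08) and FZD7 (1.35 ± 0.06) were higher in the combination. LEF1 had 100 counts against 3, a ratio of 39.9 (95% counting interval 13.3 to 197). WNT7A's value was 5.36 on the log2 scale without docetaxel 24 h C, which holds most of its counts in that group. FZD9, NKD1 and ZNRF3 were lower by 1.24, 0.82 and 0.59. AXIN2 was 8.18 to 8.94 CPM in docetaxel and 8.62 to 10.2 in the combination and did not pass the test (0.15 ± 0.09, adjusted p = 0.15, edgeR). Calls ended for FZD1 without a filter or without combination C (adjusted p up to 0.0779), LRP5 without a filter or without combination C or docetaxel 24 h B or C (up to 0.115), LRP6 without combination A (0.0975) and WNT3 with DESeq2, without a filter, or without combination B or docetaxel 24 h A (up to 0.148), all by edgeR unless DESeq2 is named.

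The other genes of the pathway were read from 7 lists, whose counts stand beside 31.4% of all tested genes called higher and 31.4% called lower in the combination; the secretion genes, for example, lie near these shares. In the combination, common beta-catenin target genes had 13 of 21 tested members higher and 3 lower, and the destruction complex with its relay had 5 of 23 higher and 12 lower. Some listed genes passed the count filter only through the combination: TNFRSF19 and PROX1 (targets), RSPO3 (co-receptors), SHISA2 and DACT1 (other antagonists). Each had at most 9 counts summed over any other group. The numbers higher in these lists can thus hold genes tested only because they were high there. TWIST1 and FOSL1, transcription factors of migration and of AP-1, rose by 6.34 and 2.08 on the log2 scale, CLDN1, a tight junction protein, by 0.87, while ID2 fell by 1.76. CTNNB1, beta-catenin itself, fell by 0.53, and its regulators AMER1, CSNK1A1 and USP34 fell by 1.57, 0.90 and 0.92. Among R-spondins and other co-receptors 7 of 11 were higher and 3 lower. RSPO3, an LGR ligand, had no count in DMSO and 87 counts in the combination, 33.6-fold against the floor of 3 counts. GPC3, GPC4 and KREMEN1 were also higher (4.57, 0.73 and 0.75). Other antagonists had 5 of 10 higher and 3 lower. SHISA2, which holds Frizzled in the endoplasmic reticulum, had 3 counts in DMSO and 1673 in the combination (ratio 647, 95% counting interval 221 to 3141), while SOSTDC1, an antagonist of WNT and BMP, fell by 1.83. Nuclear cofactors had 4 of 18 higher and 10 lower (PYGO1 3.52, TLE2 -0.77, TLE3 -0.50), secretion genes 4 of 10 higher and 3 lower (TRABD2A 2.91, PORCN 0.51, WLS -0.26) and polarity and calcium genes 4 of 23 higher and 8 lower (NFATC1 3.72, NFATC3 -0.97).

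In docetaxel, the shares over all tested genes were 22.5% higher and 24.8% lower at 8 h and 20.2% and 22.7% at 24 h. The lists' counts were not taken again under library totals, which at 8 h gave 2288 higher and 6784 lower over all genes. Falls outnumbered rises in each list at both times, apart from the targets and, at 8 h, the secretion genes. The destruction complex had 16 of 23 lower and 1 higher at 8 h and 12 lower and none higher at 24 h, with CSNK1A1 at -0.66 and -0.54. The nuclear cofactors had 11 and 9 of 18 lower and 2 and 1 higher, with BCL9L, a beta-catenin cofactor, at -0.72 and -0.83. Co-receptors had 5 and 4 of 11 lower and 1 and 0 higher (PTK7 at -0.43 and -0.76), other antagonists 5 and 5 of 10 lower and 1 and 0 higher, and polarity and calcium genes 12 and 13 of 23 lower and 5 and 2 higher. Secretion genes had 1 and 3 of 10 lower and 1 and 1 higher. Of the targets 7 and 8 of 21 were higher and 7 and 5 lower, with FOSL1 at 1.16 and 1.03 and MMP7, a matrix protease, at 1.69 at 8 h.

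**Figure D4:**
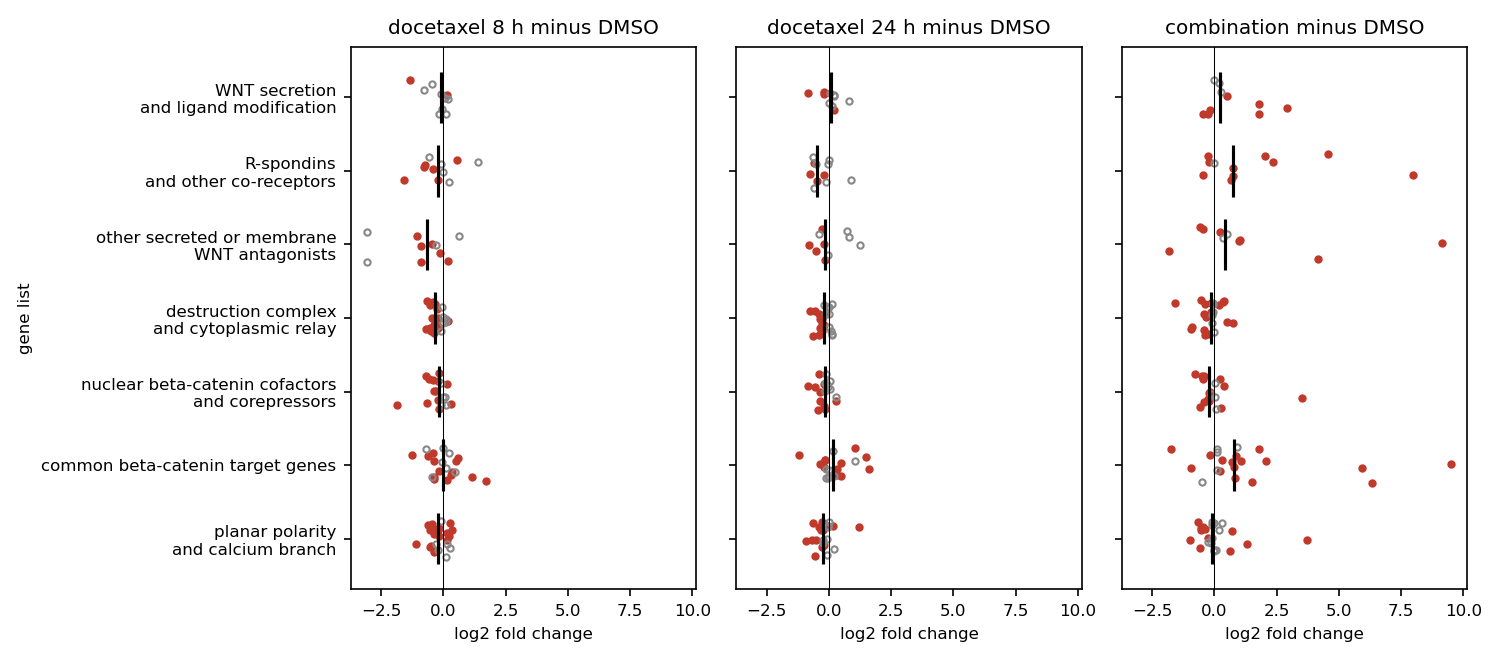
Log2 fold change of each tested gene of 7 pathway lists (rows) against DMSO in docetaxel at 8 h, docetaxel at 24 h and the combination (panels); filled points have an adjusted p under 0.05, open points do not, and the black line is the list's median. Points of the combination spread widest, with target genes mostly to the right and the destruction complex mostly to the left; values of genes with no count in DMSO depend on the prior count.

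The remaining 15 members had too few counts to enter the main fit, at most 8 in any library. WNT9B had no count in any library, and WNT1, 6689 bp from WNT10B, had 1 in all. The GENCODE gene spans of WNT9B and WNT3 lie 46 bp apart. Their RefSeq windows are further apart, at chr17:46851333-46851582 for WNT9B and chr17:46818693-46818942 for WNT3. DKK3, a divergent DKK protein, had 2 counts over the DMSO libraries and 18 over the combination libraries (ratio 10.4, 95% counting interval 2.50 to 92.8). FZD10 and LGR5, a stem cell marker, had no count in DMSO and 8 each in the combination. That is 3.09-fold against a floor of 3 counts, which leaves out the counting error of the 8. LGR5 had 6 counts at 24 h of docetaxel. In the fit without a filter, the combination against DMSO gave adjusted p = 0.0151 for DKK3, 0.0346 for LGR5 and 0.0502 for FZD10 (edgeR). WNT16 had 1 count in DMSO and 14 at 24 h of docetaxel (ratio 13.6, interval 2.07 to 574), 8 of them in library A. In the fit without a filter its adjusted p for that comparison was 0.0581 (edgeR). The antagonist WIF1 had 14 counts in DMSO, 5 at 8 h, 3 at 24 h and 4 in the combination. SFRP2 had 4 counts, all in the combination, WNT2 had 15, 5, 11 and 6 and WNT8B 18, 9, 8 and 16 over DMSO, 8 h, 24 h and the combination, WNT8A had 13 in all, and DKK2, DKK4, SFRP4 and SFRP5 had 1 or 2 in all.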

How the data were processed

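Poly(A) RNA of 12 libraries was measured. The authors deposited whole-number counts per gene symbol for each library, and a table of signal, which equals the deposited counts divided by a size factor per library (all 56990 unrepeated symbols within a relative tolerance of 1e-06). The signal table served to recover those factors as an alternative scaling. Per the submitters' processing notes, fastp, HISAT2 2.0.5, DESeq2 and hg38 were used, with no roles stated. How reads were counted (program, annotation, strand) is not given in the sources used here.

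Genes were kept by filterByExpr (minimum count 10) of edgeR 4.0.16 in R 4.3.3, which left 17780. All 12 libraries entered 1 model of group means (TMM factors 0.917 to 1.05, residual degrees of freedom 8), tested by two-sided quasi-likelihood tests for 5 comparisons, with Benjamini-Hochberg adjusted p under 0.05 as threshold. The log2 fold changes use edgeR's default prior count, and their SE is the absolute value divided by the square root of F. CPM use effective library sizes, and levels per kb the union of GENCODE release 29 exons. The script was first tested on simulated data with known changes. A gene that lacked counts in a group got a fold against 3 counts over the group, which leaves out the counting error of the other group. A gene with 1 to 3 counts in a group got an exact (Clopper-Pearson) 95% interval of the ratio. Library totals were 29820617 to 45807059, and the biological coefficient of variation was 5.59%. Within groups, counts differed beyond sampling noise (chi-square per degree of freedom 3.25 to 16.3), so no library was counted as a repeat of another.

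Alternatives were other scalings, DESeq2 1.42.0, other filters, fits of only the groups compared, a block for the library letter, and each library left out. All tested members are named, CPM per library is given for members with a log2 change of at least 1 against DMSO at 1 CPM or more and for AXIN2, and from each list up to 4 genes with the smallest adjusted p in a comparison; further members' values were added after they were seen. The members and lists were chosen with earlier results of these data known. Upstream sequences are RefSeq's, build GRCh38.p14.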

Additional observations from a re-analysis of the deposited data

Results flagged for a closer look

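The docetaxel effect differed between 8 h and 24 h in 21 members. Both effects use the same DMSO libraries, so each difference is the fitted log2 fold change of 24 h against 8 h (edgeR quasi-likelihood, Benjamini-Hochberg, 3 libraries a group). 12 of the values are positive: FZD8 1.14, LGR4 0.53, WNT11 0.49, FZD4 0.49, FZD5 0.42, ZNRF3 0.32, SFRP1 0.29, TCF7L2 0.27, FZD1 0.22, FZD3 0.22, FZD6 0.20 and DKK1 0.14. Those that were lower at 24 h than at 8 h were LGR6 at -1.09, WNT3A at -0.83, WNT10B at -0.51, WNT4 at -0.49, WNT5A at -0.48, WNT6 at -0.45, WNT9A at -0.32, WNT10A at -0.31 and FZD2 at -0.26.

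Of the 12 positive values 7 held in every alternative. DKK1 lost its call under DESeq2, the size factors of DESeq2 and of the authors, no filter and the fit of only these groups, and without docetaxel 8 h A or B or docetaxel 24 h B or C (adjusted p up to 0.246). WNT11 lost it with DESeq2, no filter or only these groups, and without docetaxel 8 h A or C or 24 h A or C (up to 0.135). FZD3 lost it without a filter, docetaxel 8 h A or B or 24 h B (up to 0.0728), TCF7L2 without docetaxel 8 h A or 24 h B (up to 0.114) and FZD6 without docetaxel 24 h B (0.0564). Of the 9 negative values 8 held; WNT10B lost its call under library totals and without docetaxel 8 h B or C or 24 h C (up to 0.0736), all by edgeR unless another tool is named. The cause of these differences was not tested.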

How the results depend on the processing

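Over the 37 tested members and 5 comparisons no call changed direction under any alternative. DESeq2 ended 7 of the calls and added 1, fits without a filter ended 11 and added 3, and library totals ended 4 and added 9. Leaving out 1 library at a time gave 1110 results, each of a member in a comparison. Among these results a call was lost in 91 and gained in 20, and the same call can recur with different libraries left out. Of the 13 higher and 16 lower calls in the combination, 12 and 13 held in every alternative run, and of the 5 and 18 calls at 24 h of docetaxel 3 and 12 held. At 8 h 3 of 5 and 9 of 15 held. Under library totals 3 members were higher at 8 h of docetaxel. Over the fits that left out 1 library, higher calls ran from 3 to 6 and lower calls from 9 to 13 at 8 h, and higher calls from 3 to 5 and lower calls from 13 to 17 at 24 h, where fewer samples give each test less power. The fitted value of LEF1 in the combination against 24 h of docetaxel ran from 4.69 to 8.15, the latter without docetaxel 24 h C, which left no count in that group.

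With the library letter as a replicate block, 184 of 185 results stayed on their side of the threshold; WNT3 in the combination did not, with a log2 fold change of 0.66 and an adjusted p of 0.0587 (edgeR), and 12 members were higher in place of 13. Libraries of the same letter had correlations of deviations from their group means of -0.134 to 0.143, and those of different letters -0.127 to 0.101. These ranges overlap and show no clear pairing by letter, but with 3 libraries a group they cannot exclude it. For 6 of 12 libraries the closest library of another group had the same letter, where 1 of the 3 libraries of each group carries that letter. The correlations of these closest libraries were low, from 0.0204 to 0.143.

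Depth limits members under about 1 CPM: WNT7A, LEF1, WNT3 and the 15 members below the filter rest on few counts. Mean FZD8 was also under 1 CPM outside the combination, with 76, 42 and 111 counts over DMSO, 8 h and 24 h of docetaxel. The same holds for LGR6 at 24 h of docetaxel and in the combination (97 and 89 counts), and for WNT2B at 8 h (92 counts).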
